A study of Homo sapiens with 9 samples.

Results

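The 9 genes described here make, sense and break down prostaglandin E2, and they were chosen by name around PTGS2, the inducible cyclooxygenase. They are PLA2G4A, PTGS1, PTGS2, PTGES, PTGES2, PTGES3, PTGER2, PTGER4 and HPGD, 9 of the 58037 genes in the table. PTGS2 and its neighbours in the pathway were picked because PTGS2 stood higher in EZH2-targeted cells, so the members' values against control, fitted limits included, are given as a description with no p. Of the 9 genes, 6 passed the filter on low values (1 RPKM reached in 3 or more libraries) and could enter the tests, each with at least 1.04 RPKM in all 9 libraries, while PTGS1, PTGER2 and HPGD did not. RPKM are reads scaled to gene length and library size, so levels can be set side by side between genes.

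RNA-seq profiled 3 conditions in the established human cell lines MDA-MB-231 and MDA-MB-436 and in cells labelled as a further line, MDA-MB-453, all derived from triple-negative breast cancers and cultured in DMEM with fetal bovine serum. The GSK343 libraries came from cells given GSK343, an inhibitor of the methyltransferase EZH2, the shEZH2 libraries came from cells carrying a short hairpin RNA against EZH2, and the control libraries came from cells whose labels state no treatment. The table's own headers call the controls shControl, so whether they carried a hairpin is not settled. There was 1 library for each line and condition, 3 per condition, and dose and duration were not given in the sources used here. The lines therefore serve as the replicates, and a spread between them mixes biology of the line with technical error. The libraries labelled MDA-MB-453 are counted as an independent line, which was not tested.

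Arachidonic acid is cut from membrane phospholipids by cytosolic phospholipase A2 (PLA2G4A) and turned into prostaglandin H2 by a cyclooxygenase, either the constitutive PTGS1 or the inducible PTGS2. Terminal synthases (PTGES, PTGES2, PTGES3) convert prostaglandin H2 to prostaglandin E2, which signals through G protein-coupled receptors, among them EP2 and EP4 (PTGER2, PTGER4) that raise cyclic AMP, until 15-hydroxyprostaglandin dehydrogenase (HPGD) inactivates it. In breast cancer the pathway is known above all for PTGS2, which is switched on by cytokines and growth factors and is studied for its part in inflammation and metastasis.

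The RPKM were scaled to totals of between 14757000 and 18283000 reads a library, computed from the smallest steps of the RPKM. Whether these totals count reads assigned to genes or all mapped reads is not known. EZH2 itself was at 5.77, 7.53 and 7.99 RPKM in the libraries labelled GSK343 (first MDA-MB-231, then MDA-MB-436, last MDA-MB-453, as in all triplets below), 16.4, 37.4 and 16.2 RPKM in those labelled shEZH2, and 27.4, 38.9 and 42.3 RPKM in controls. The transcript was thus lowest in the libraries labelled GSK343, an agent that acts on the enzyme, and in MDA-MB-436 the library labelled shEZH2 lay close to its control, so the conditions are named below only as their labels give them. The libraries labelled MDA-MB-453 did not carry the profile of that line, which is known as luminal: 0 of 10 luminal markers were highest in these libraries in all 3 conditions. The summed RPKM of the 10 markers was 174, 180 and 160 in the MDA-MB-453 libraries labelled GSK343, shEZH2 and control, against 209, 222 and 270 in MDA-MB-231 and 147, 143 and 191 in MDA-MB-436. For 10 mesenchymal markers of the other lines, all at 1 RPKM or more in each library, the sums were 1091, 1141 and 1518 RPKM in the MDA-MB-453 libraries, 1209, 1176 and 1450 in MDA-MB-231, and 1022, 1087 and 1367 in MDA-MB-436, again for GSK343, shEZH2 and control. Over the 12965 genes tested, the value in the library labelled MDA-MB-453 lay between those of the other lines for 73.8% of genes in GSK343, 83.0% in shEZH2 and 47.1% in controls. For the 9 prostaglandin genes this held in 15 of 27 cases. What these libraries contain was not tested, and fitted results that use them are also given without them. The SDs, fitted limits and p-values over 3 lines treat them as independent of the other lines, and hold only if they are.

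The stretches of 250 bases just before the RefSeq transcription start (GRCh38.p14) are shown for PTGS2, for PTGES, the synthase usually coupled to it, and for PLA2G4A, its neighbour on chromosome 1 and the supplier of its substrate. They were picked with the values known, and are shown because known regulators of PTGS2 act in this stretch of its promoter. Capitals mark letters that match a searched motif on either strand, and each stretch reads toward the gene.
PTGS2: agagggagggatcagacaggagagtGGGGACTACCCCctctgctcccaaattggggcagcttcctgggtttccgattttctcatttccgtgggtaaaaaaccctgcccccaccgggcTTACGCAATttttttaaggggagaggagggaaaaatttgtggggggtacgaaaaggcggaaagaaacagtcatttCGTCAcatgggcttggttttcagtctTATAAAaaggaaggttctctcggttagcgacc
PTGES: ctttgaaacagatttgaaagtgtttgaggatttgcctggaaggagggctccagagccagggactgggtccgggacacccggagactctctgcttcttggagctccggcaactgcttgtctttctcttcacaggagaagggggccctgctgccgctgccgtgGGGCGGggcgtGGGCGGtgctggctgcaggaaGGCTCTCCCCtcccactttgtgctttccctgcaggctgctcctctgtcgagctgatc
PLA2G4A: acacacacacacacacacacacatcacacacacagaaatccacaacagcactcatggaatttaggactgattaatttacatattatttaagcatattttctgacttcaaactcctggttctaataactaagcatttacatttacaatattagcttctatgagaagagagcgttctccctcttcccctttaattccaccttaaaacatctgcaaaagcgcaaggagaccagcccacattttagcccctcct
They lie at chr1:186680424-186680673 on the minus strand (PTGS2), chr9:129753043-129753292 on the minus strand (PTGES) and chr1:186828699-186828948 on the plus strand (PLA2G4A). The search, on both strands, covered the TATA box (letters TATAAA), the core of the cyclic AMP response element (TGACG) and the NF-kB motif, taken as 3 G and 2 C with any 5 bases between. It also covered the C/EBP motif (TTNNGNAAT), the AP-1 motif (TGANTCA), the E-box (CACGTG) and the GC box (GGGCGG). The PTGS2 stretch held a TATA box at 32 to 27 bases before the start, the response element core at 58 to 54, the C/EBP letters at 133 to 125, and 4 overlapping matches to the NF-kB letters within bases 225 to 214. The PTGES stretch had no TATA box but 2 GC boxes, at 89 to 84 and 78 to 73 bases before the start, and NF-kB letters at 57 to 48. The PLA2G4A stretch had 0 matches. Among 35116 windows of the same length in the RefSeq table, the TATA box occurred in 10.7%, the response element core in 21.2%, the NF-kB motif in 54.4%, the C/EBP motif in 9.85%, the AP-1 motif in 6.57%, the E-box in 6.34% and the GC box in 42.6%. A match describes letters only and says nothing of binding in these cells.

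Per unit of length, the terminal synthases stood far above the other steps. In controls PTGES3 averaged 83.4 ± 7.73 RPKM (SD over the 3 lines, as for the other means here), PTGES 68.1 ± 34.3 and PTGES2 41.3 ± 22.1, and these neighbours overlapped in their spread. PTGER4 at 4.65 ± 0.884 RPKM, PLA2G4A at 4.25 ± 2.79 and PTGS2 at 2.06 ± 0.663 formed a middle tier whose neighbours also overlapped within their SDs. PTGS1 at 0.354 ± 0.239, PTGER2 at 0.212 ± 0.0588 and HPGD at 0.0365 ± 0.0130 RPKM were at the bottom, where PTGS1 and PTGER2 overlapped and HPGD lay below both. In the targeted libraries PTGES was the highest of the 9, at 184 ± 81.8 RPKM with GSK343 and 208 ± 55.8 with shEZH2. Set among all genes tested, PTGS2 exceeded 19.8%, 24.6% and 30.4% of them in the 3 controls, whereas PTGES exceeded 91.4%, 97.3% and 94.0%.

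**Figure D1:**
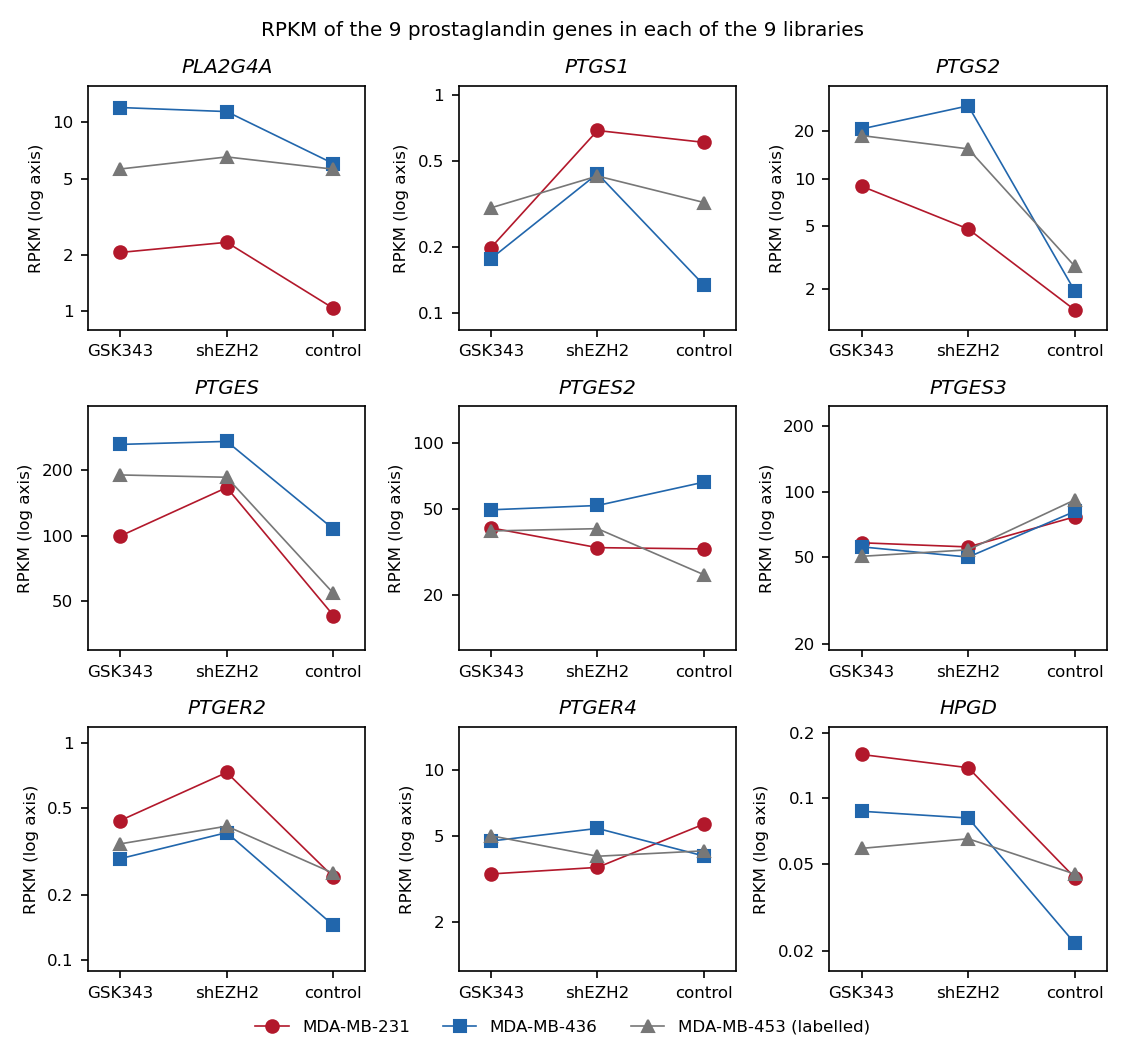
RPKM (log axis, each panel with its own range) of the 9 genes in the libraries labelled GSK343, shEZH2 and control; each point is 1 library and lines join the libraries of 1 cell line. PTGS2 lay between 4.80 and 28.8 RPKM in the 6 targeted libraries and between 1.47 and 2.78 RPKM in the controls, while PTGES3 was lower in every targeted library (50.1 to 58.3 RPKM) than in any control (76.9 to 91.9 RPKM).

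The substrate step was represented by PLA2G4A, which hydrolyses phospholipids at the position that carries arachidonate. It had 2.05, 12.0 and 5.67 RPKM in the libraries labelled GSK343, 2.32, 11.4 and 6.57 RPKM in those labelled shEZH2, and 1.04, 6.05 and 5.66 RPKM in controls. In MDA-MB-231 and likewise MDA-MB-436 both targeted libraries were above their control, and in the libraries labelled MDA-MB-453 the GSK343 value equalled its control to within counting error. The within-line ratios to control were 1.98, 1.98 and 1.002 for GSK343 and 2.24, 1.89 and 1.16 for shEZH2, the last with a 95% counting interval of 0.983 to 1.37. The groups overlapped, since the lines differed by more than the conditions within a line.

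At the cyclooxygenase step PTGS2 was far above control in each line, and the size differed between lines. PTGS2 had 8.95, 20.6 and 18.7 RPKM in the libraries labelled GSK343 (mean 16.1 ± 6.25), 4.80, 28.8 and 15.4 RPKM in those labelled shEZH2 (mean 16.3 ± 12.0), and 1.47, 1.93 and 2.78 RPKM in controls (mean 2.06 ± 0.663). The lowest targeted library, MDA-MB-231 with shEZH2, was above the highest control, so the groups did not overlap, and the means of the 2 targeted conditions differed by far less than their SDs. These levels rest on 696, 1797 and 1512 reads under GSK343, 462, 2705 and 1349 under shEZH2, and 130, 171 and 236 in controls. Within lines the ratio to control was 6.08 (95% counting interval 5.04 to 7.39), 10.6 (9.10 to 12.5) and 6.73 (5.86 to 7.75) for GSK343. For shEZH2 it was 3.26 (2.68 to 3.99), 14.9 (12.8 to 17.5) and 5.54 (4.82 to 6.39). The ratio of 14.9 belongs to the MDA-MB-436 library whose EZH2 transcript (37.4 RPKM) lay close to its control (38.9 RPKM). The counting intervals of MDA-MB-436 and MDA-MB-231 did not meet in either condition, though they cover counting error only and not differences between cultures. In bulk RNA a larger share of expressing cells and more transcript per cell cannot be told apart.

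PTGS1, the constitutive isoform, was scarce in all libraries. It had 0.199, 0.177 and 0.304 RPKM in the libraries labelled GSK343, 0.690, 0.437 and 0.426 RPKM in those labelled shEZH2, and 0.608, 0.134 and 0.322 RPKM in controls, from 13 to 73 reads a library. Its ratio to control had no common direction under GSK343, at 0.327 (0.179 to 0.569), 1.33 (0.606 to 2.97) and 0.945 (0.541 to 1.64). Under shEZH2 the ratios were 1.13, 3.26 and 1.32, and only the counting interval of MDA-MB-436 lay wholly above 1 (1.73 to 6.59). PTGS1 fell below the filter and was not tested.

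**Figure D2:**
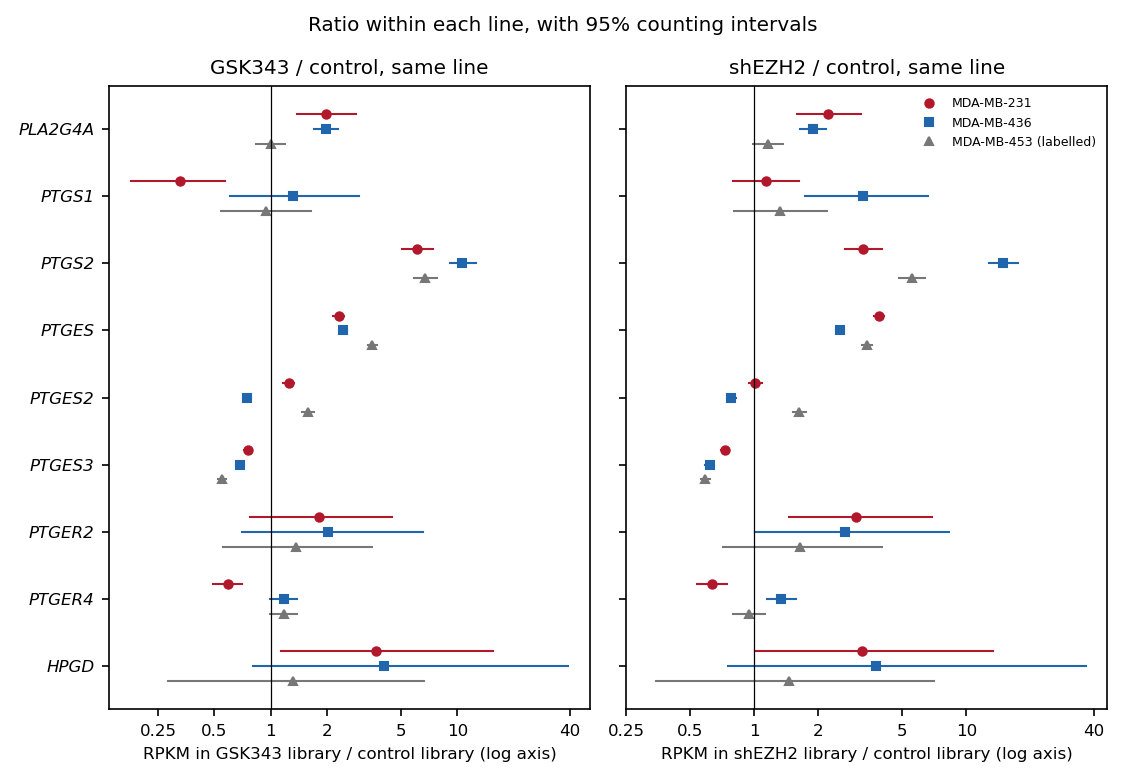
Ratio of RPKM in the library labelled GSK343 (left) or shEZH2 (right) to the control library of the same line, on a log axis with 95% counting intervals; the vertical line marks a ratio of 1. PTGS2 ratios ran from 6.08 to 10.6 and from 3.26 to 14.9, PTGES ratios from 2.32 to 3.50 and from 2.53 to 3.87, and PTGES3 ratios stayed below 1 in all 6 cases.

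Of the terminal synthases, PTGES, the microsomal and inducible form that is usually coupled to PTGS2, was above its control in every line. PTGES had 99.4, 263 and 190 RPKM in the libraries labelled GSK343, 166, 271 and 186 RPKM in those labelled shEZH2, and 42.9, 107 and 54.3 RPKM in controls. Every targeted library exceeded the control of its own line, by ratios of 2.32, 2.45 and 3.50 for GSK343 and 3.87, 2.53 and 3.42 for shEZH2. Across lines the GSK343 group still overlapped with controls, because the MDA-MB-231 library at 99.4 RPKM lay under the MDA-MB-436 control, whereas the shEZH2 group did not overlap.

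PTGES2, a membrane-associated synthase expressed constitutively, had 40.9, 49.5 and 39.5 RPKM in the libraries labelled GSK343, 33.2, 51.8 and 40.5 RPKM in those labelled shEZH2, and 32.7, 66.4 and 24.9 RPKM in controls. The lines went different ways: the ratio to control was 0.745 and 0.780 in MDA-MB-436 but 1.59 and 1.63 in the libraries labelled MDA-MB-453, for GSK343 and shEZH2 in turn. PTGES3, the cytosolic synthase that is better known as p23, a co-chaperone of HSP90, went the opposite way to PTGES. It had 58.3, 55.9 and 50.5 RPKM in the libraries labelled GSK343, 55.8, 50.1 and 54.1 RPKM in those labelled shEZH2, and 76.9, 81.4 and 91.9 RPKM in controls. All 6 targeted libraries were below all 3 controls, at ratios of 0.550 to 0.759 within lines. The table also lists 5 PTGES3 pseudogenes, none above 2.12 RPKM, and how reads were split between them and the gene is not known.

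Among the receptors, PTGER4 (EP4) was the more abundant and showed no shared direction. It had 3.34, 4.72 and 5.002 RPKM in the libraries labelled GSK343, 3.58, 5.40 and 4.02 RPKM in those labelled shEZH2, and 5.66, 4.03 and 4.26 RPKM in controls. In MDA-MB-231 it was below control, at ratios of 0.589 (0.493 to 0.702) for GSK343 and 0.631 (0.537 to 0.742) for shEZH2. In MDA-MB-436 the same ratios were 1.17 (0.992 to 1.39) and 1.34 (1.14 to 1.57).

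PTGER2 (EP2) had 0.438, 0.293 and 0.343 RPKM in the libraries labelled GSK343, 0.730, 0.386 and 0.413 RPKM in those labelled shEZH2, and 0.241, 0.145 and 0.251 RPKM in controls. Each targeted library was above each control, but on 12 to 33 reads against 6 to 10, and the counting interval of the ratio included 1 in 4 of 6 cases. HPGD, which inactivates prostaglandin E2, had 0.159, 0.0873 and 0.0589 RPKM in the libraries labelled GSK343, 0.138, 0.0813 and 0.0653 RPKM in those labelled shEZH2, and 0.0432, 0.0216 and 0.0449 RPKM in controls. These are 5 to 14 reads in targeted libraries and 2 to 4 in controls, so the ratios of 1.31 to 4.05 have wide counting intervals, the widest from 0.809 to 39.2.

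On the scale of log2(RPKM + 1), averaged over lines with the line as a term, GSK343 minus control was 2.42 ± 0.62 for PTGS2 (95% limits, as for the other fitted values), 1.42 ± 0.39 for PTGES, 0.49 ± 0.37 for PLA2G4A, 0.18 ± 0.43 for PTGES2, -0.08 ± 0.40 for PTGER4 and -0.59 ± 0.31 for PTGES3. The shEZH2 minus control values were 2.23 ± 0.62 for PTGS2, 1.67 ± 0.39 for PTGES, 0.57 ± 0.37 for PLA2G4A, 0.12 ± 0.43 for PTGES2, -0.09 ± 0.40 for PTGER4 and -0.63 ± 0.31 for PTGES3. Both sets of values use the same controls and are therefore not independent of each other. Without the libraries labelled MDA-MB-453, the PTGS2 values were 2.44 and 2.29, the PTGES values 1.24 and 1.63, the PLA2G4A values 0.73 and 0.76 and the PTGES3 values -0.46 and -0.57, while PTGES2 changed sign to -0.05 and -0.17. Of the 9 members, 3 (PTGS2, PTGES and PTGES3) were among the genes called at an adjusted p of 0.05 in each comparison, which made up 7.85% of genes tested for GSK343 and 10.6% for shEZH2. With the MDA-MB-453-labelled libraries left out, the threshold was passed by 0 members, and by 0.332% and 0.123% of genes. Since these comparisons chose the members, nothing is read from the counts.

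In the GSK343 comparison the RPKM of the groups did not overlap for 3 members that were higher (PTGS2, PTGER2, HPGD) and 1 that was lower (PTGES3), where 6.67% of genes tested were higher and 3.03% lower without overlap. In the shEZH2 comparison the count was 4 higher (PTGS2, PTGES, PTGER2, HPGD) and 1 lower (PTGES3), against 7.39% and 4.48% of genes tested. PTGER2 and HPGD lie below the filter and are not among the genes behind these shares, so their counts have no background here.

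The balance between enzymes of the same step also differed, as a ratio of RPKM within each library. PTGS2 over PTGS1 was 45.0, 116 and 61.5 in the libraries labelled GSK343, 6.95, 66.1 and 36.2 in those labelled shEZH2, and 2.42, 14.5 and 8.64 in controls, so PTGS2 was the more abundant cyclooxygenase in every library. PTGES over PTGES3 was 1.70, 4.70 and 3.76 under GSK343, 2.98, 5.41 and 3.43 under shEZH2, and 0.559, 1.32 and 0.590 in controls. In MDA-MB-231 and in the libraries labelled MDA-MB-453, PTGES3 was the more abundant of that pair in controls and PTGES in the targeted libraries. PTGES over PTGES2 was 2.43, 5.31 and 4.81 under GSK343, 5.02, 5.24 and 4.58 under shEZH2, and 1.31, 1.61 and 2.18 in controls. These ratios share the values above and add no independent evidence.

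**Figure D3:**
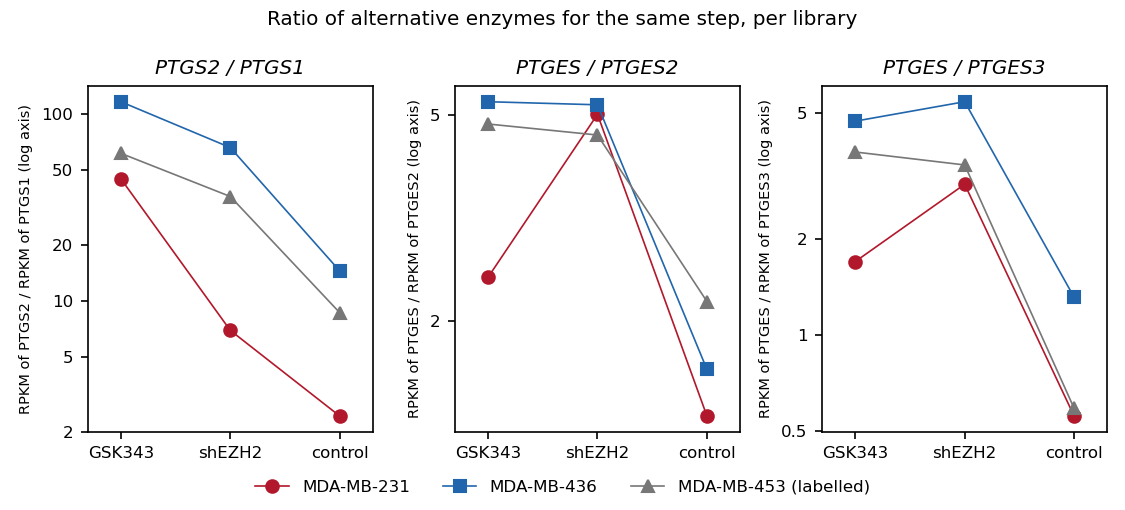
Ratio of RPKM of PTGS2 to PTGS1, PTGES to PTGES2 and PTGES to PTGES3 in each library (log axes), by condition; lines join the libraries of 1 cell line. Within each line the 3 ratios were higher in both targeted libraries than in the control, as for PTGS2 to PTGS1 in MDA-MB-436 (116 with GSK343, 66.1 with shEZH2 and 14.5 in the control).

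Whether the inhibitor and the hairpin gave different levels was tested directly between those libraries, with limma and Benjamini-Hochberg adjustment over all 12965 genes, two-sided. GSK343 minus shEZH2 was 0.19 ± 0.62 for PTGS2, -0.25 ± 0.39 for PTGES, 0.07 ± 0.43 for PTGES2, 0.04 ± 0.31 for PTGES3, 0.01 ± 0.40 for PTGER4 and -0.08 ± 0.37 for PLA2G4A on the log2(RPKM + 1) scale. The adjusted p was 0.9998 for each. No gene passed the threshold (0 of 12965), 295 genes (2.28%) had an unadjusted p under 0.05, and leaving out the MDA-MB-453-labelled libraries gave 1 gene (0.00771%), not a member, with PTGS2 at 0.16 and PTGES at -0.39. The 2.28% lies below the share that a threshold of 0.05 gives when nothing differs. The spread was pooled over all 9 libraries. Differences between lines in the change from control enter it and can make this test miss differences. Each interval includes 0 but also sizeable differences in either direction for PTGS2, so these data do not show that the inhibitor and the hairpin act alike. PTGS1, which was not tested, had all 3 GSK343 values (0.177 to 0.304 RPKM) below all 3 shEZH2 values (0.426 to 0.690 RPKM). These values rest on 17 to 27 reads against 41 to 73. Among genes tested 1.34% had this pattern, but PTGS1 lies below the filter and is not among them, so its pattern has no background here.

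Of the 6 members tested, 4 passed as lower in MDA-MB-231 than in MDA-MB-436, in a comparison where 63.4% of all genes tested passed and 34.8% passed and were lower. Over the 3 conditions, MDA-MB-231 minus MDA-MB-436 was -1.93 ± 0.37 for PLA2G4A (adjusted p = 1.56e-06 by limma), -1.24 ± 0.62 for PTGS2 (adjusted p = 0.00235), -1.13 ± 0.39 for PTGES (adjusted p = 0.000177) and -0.63 ± 0.43 for PTGES2 (adjusted p = 0.0150), each lower in MDA-MB-231 in 3 of 3 conditions. These are RPKM + 1 that were 3.80-fold lower for PLA2G4A, 2.37-fold lower for PTGS2 and 2.19-fold lower for PTGES. For PTGS2 the difference was -1.12 with GSK343, -2.36 with shEZH2 and -0.25 in controls, and so was larger in the targeted libraries than in controls, whereas PLA2G4A was lower in controls too (1.04 RPKM in MDA-MB-231 against 6.05 in MDA-MB-436). PTGES3 (0.04 ± 0.31, adjusted p = 0.801) and PTGER4 (-0.16 ± 0.40, adjusted p = 0.465) did not pass. A difference between these lines is thus common to most genes. The members' count, 4 of 6, is near the 63.4% called in either direction and above the 34.8% called lower. With 6 members nothing is read from it. Without the libraries labelled MDA-MB-453 the same 4 passed, with adjusted p of 2.91e-05 for PLA2G4A, 0.000876 for PTGES, 0.00954 for PTGES2 and 0.0154 for PTGS2, among 63.9% of genes. PTGES2 lost its call after rescaling by median ratios (-0.52, adjusted p = 0.0537), with no filter on low values (adjusted p = 0.0807), without the MDA-MB-231 library labelled shEZH2 (-0.55) and without the MDA-MB-436 control (-0.37).

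A separate fit tested whether the response itself (the mean of both targeted libraries minus the control, 3 residual degrees of freedom) differed between MDA-MB-231 and MDA-MB-436. Its spread comes from the difference between GSK343 and shEZH2 within each line, and each line has 1 control library, so the intervals and p-values carry no spread between controls. For PTGS2 the response in MDA-MB-231 minus that in MDA-MB-436 was -1.49 ± 1.13 with an adjusted p of 0.190 by limma, so the smaller ratio in MDA-MB-231 did not pass over all genes. The values were -0.85 ± 0.52 for PTGER4 (adjusted p = 0.150), 0.55 ± 0.49 for PTGES2 (adjusted p = 0.241), 0.25 ± 0.92 for PTGES (adjusted p = 0.754), 0.19 ± 0.42 for PTGES3 (adjusted p = 0.609) and -0.21 ± 0.46 for PLA2G4A (adjusted p = 0.606). Of all genes tested 7 passed (0.054%), and 2360 (18.2%) had an unadjusted p under 0.05. The counts depended on single libraries: without the MDA-MB-231 library labelled GSK343, 1038 genes passed, among them PTGS2 at -1.88 and PTGES at 0.62, and without the MDA-MB-231 library labelled shEZH2, 1300 genes passed, among them PTGES2 at 0.70. Leaving out the MDA-MB-453-labelled libraries left 0 genes.

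**Figure D4:**
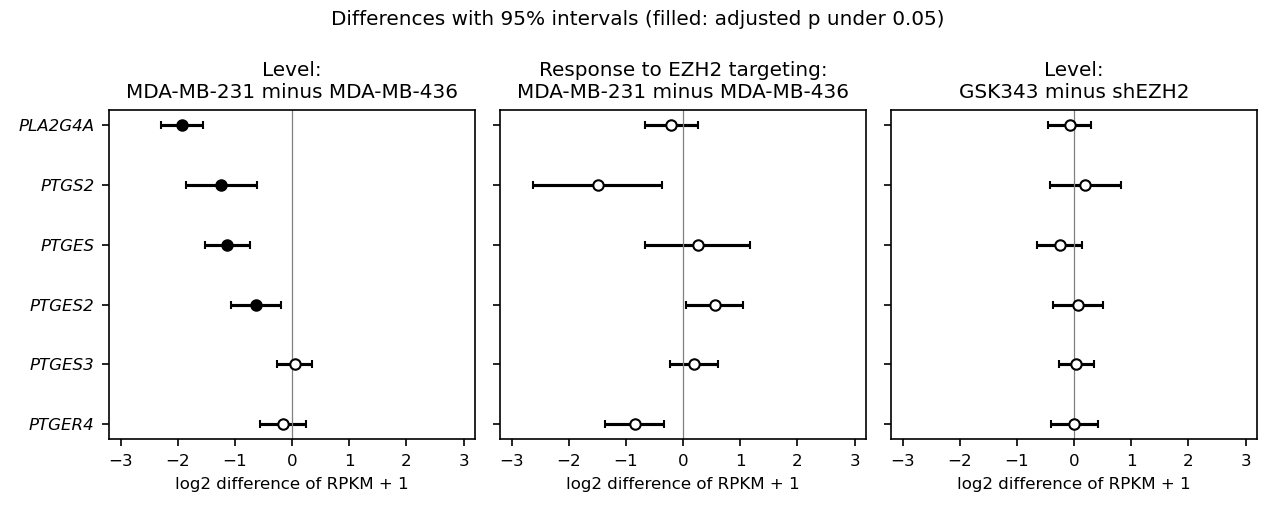
Differences of log2(RPKM + 1) with 95% intervals for the 6 tested genes: level in MDA-MB-231 minus MDA-MB-436 (left), response in MDA-MB-231 minus MDA-MB-436 (middle) and GSK343 minus shEZH2 (right); filled points have an adjusted p under 0.05. PLA2G4A, PTGS2, PTGES and PTGES2 are filled on the left, at -1.93, -1.24, -1.13 and -0.63, and none is filled in the other panels.

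The genes whose log2(RPKM + 1) followed PTGS2 most closely over the 9 libraries were KLF10 (Pearson r 0.98), NOV (0.98), DYRK3 (0.98), USP54 (0.97) and RP5-991G20.1 (0.97). Of all genes tested 1.01% had an r over 0.9. After each gene was centred within its line the closest were JOSD1 (0.996), VPS11 (0.99), CD22 (0.99), FAM110B (0.99) and PCTP (0.99), and 4.78% of genes had an r over 0.9. Of these genes, FAM110B (0.0241 to 2.01 RPKM), CD22 (0.372 to 3.79) and RP5-991G20.1 (0.935 to 1.74) were near the floor in some libraries. An r reflects shape and not size. With GSK343 the log2 changes of the named genes ran from 0.21 (PCTP) to 1.63 (NOV), against 2.42 for PTGS2. Of the prostaglandin genes, PTGES had an r of 0.87 over the libraries and 0.86 within lines, PLA2G4A 0.65 and 0.81, PTGES2 0.31 and 0.22, PTGER4 0.16 and 0.03, and PTGES3 -0.87 and -0.94. These values describe 9 libraries that share 3 lines and 3 conditions, and no test was made on them.

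PTGS2 and PLA2G4A are neighbours on chromosome 1. In GRCh38 (GENCODE release 29), PTGS2 spans chr1:186671791-186680427 on the minus strand and PLA2G4A chr1:186828953-186988981 on the plus strand, 148.5 kb apart, with the antisense RNA gene PACERR the only gene annotated between them. The other members are spread over the genome: PTGES at chr9:129738331-129753047, PTGES2 at chr9:128120693-128128462 and PTGES3 at chr12:56663341-56688408, all on the minus strand, PTGER2 at chr14:52314305-52328606 and PTGER4 at chr5:40679498-40693735 on the plus strand, HPGD at chr4:174490177-174523154 on the minus strand and PTGS1 at chr9:122370530-122395703 on the plus strand. None of the 9 shares exon bases with another annotated gene.

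Around these members, lists of pathway genes were counted in the same fits, beside the background of 7.85% of genes called for GSK343 and 10.6% for shEZH2 and median log2 changes over all genes of 0.06 and 0.05. The lists, like the members, were chosen with earlier results of these data known. Their counts, medians and adjusted p in the comparisons with control are therefore descriptions, and no independent evidence for the members' pattern. Counts and medians of the arachidonate, lipoxygenase and cyclic AMP-responsive lists include genes that passed the filter through targeted libraries, which favours higher values. Of the calls over all genes, 79.6% for GSK343 and 78.6% for shEZH2 were higher than control, and 54.1% and 56.5% after rescaling by median ratios, so calls below that were lost or gained with this rescaling are named. With the MDA-MB-453-labelled libraries left out, no gene of any of the 10 lists passed in either comparison, with 43 genes passing in all for GSK343 and 16 for shEZH2. Their medians without these libraries were 0.32 for GSK343 and 0.35 for shEZH2 (arachidonate release), 0.69 and 0.78 (lipoxygenase), 0.44 and 0.59 (cyclic AMP-responsive genes) and -0.36 and -0.44 (HSP90 machinery). Between GSK343 and shEZH2, 0 genes of the lists passed, and IL1B alone passed for the response between lines. All adjusted p are from limma over the 12965 genes.

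Upstream of the cyclooxygenases, 3 of 12 tested genes of arachidonate release and recycling (20 listed) rose with GSK343 and 0 fell, with a median of 0.43. PLA2G4C, a calcium-independent relative of PLA2G4A, rose by 1.03 ± 0.38 (adjusted p = 0.00559), DAGLA, which makes the endocannabinoid 2-arachidonoylglycerol, by 0.62 ± 0.37 (adjusted p = 0.0453) and MGLL, which hydrolyses it to arachidonate, by 0.54 ± 0.33 (adjusted p = 0.0494). The DAGLA and MGLL calls were lost after rescaling (adjusted p = 0.0814 and 0.113). With shEZH2 2 rose and 0 fell, with a median of 0.47: PLA2G4C by 0.85 ± 0.38 (adjusted p = 0.0128) and PLA2G6, another calcium-independent phospholipase, by 0.72 ± 0.37 (adjusted p = 0.0220). PLA2G4C stood at 1.18, 3.30 and 1.46 RPKM under GSK343, 0.653, 2.44 and 1.78 under shEZH2 and 0.189, 0.613 and 0.404 in controls, and the groups did not overlap. PLA2G6 stood at 0.477, 0.485 and 0.257 RPKM in controls. Both genes were under 1 RPKM in every control and passed the filter only through targeted libraries, so their calls are descriptions.

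The competing lipoxygenase branch had few expressed genes: 4 of 13 were tested and 3 rose in each comparison, with medians of 0.80 for GSK343 and 0.91 for shEZH2. ALOXE3, an epidermis-type lipoxygenase, rose by 1.33 ± 0.57 with GSK343 (adjusted p = 0.0125) and 1.01 ± 0.57 with shEZH2 (adjusted p = 0.0308), although its shEZH2 library in MDA-MB-231 (0.0727 RPKM) was below that line's control (0.0952). The leukotriene B4 receptor LTB4R rose by 0.67 ± 0.39 (adjusted p = 0.0421) and 0.82 ± 0.39 (adjusted p = 0.0163). ALOX5AP, which presents arachidonate to arachidonate lipoxygenase ALOX5, rose by 0.94 ± 0.56 (adjusted p = 0.0449) and 1.05 ± 0.56 (adjusted p = 0.0239), although in MDA-MB-436 its GSK343 library (0.563 RPKM) was below the control (0.625). The GSK343 calls of LTB4R and ALOX5AP were lost after rescaling (adjusted p = 0.0803 and 0.0661). Among controls, ALOX5AP was under 1 RPKM in all, and ALOXE3 reached it only in MDA-MB-436 (1.01 RPKM). ALOX5AP and ALOXE3 thus passed the filter through targeted libraries, and their calls are descriptions.

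In the other prostanoid branches few genes passed. Of 6 tested synthases and reductases (9 listed) 1 rose and 0 fell in each comparison, with medians of 0.03 and 0.07: AKR1B1, an aldo-keto reductase with prostaglandin F synthase activity, by 0.60 ± 0.34 with GSK343 (adjusted p = 0.0388) and 0.65 ± 0.34 with shEZH2 (adjusted p = 0.0230), both lost after rescaling (adjusted p = 0.0976 and 0.0604). Of 7 other prostanoid receptors 2 reached the filter, TBXA2R and PTGFR, and neither passed in either comparison, at 0.07 and -0.04 for GSK343 and 0.25 and -0.06 for shEZH2. Of 4 tested genes of transport and breakdown (5 listed), ABCC4, an exporter of prostaglandin E2, fell with GSK343 by 0.61 ± 0.37 on the log2 scale (adjusted p = 0.0460), and 0 passed with shEZH2, where its value was -0.55 ± 0.37 (adjusted p = 0.0586, and 0.0327 after rescaling); the list's medians were -0.11 and -0.17.

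Of 10 tested inducers of PTGS2 and their receptors (11 listed), IL1B alone rose in each comparison, and the medians were 0.08 and 0.12. IL1B, the cytokine interleukin-1 beta, stood at 75.1, 250 and 130 RPKM with GSK343, 59.6, 245 and 151 with shEZH2, and 5.15, 131 and 63.9 in controls. It rose by 1.86 ± 0.91 with GSK343 (adjusted p = 0.0222) and 1.81 ± 0.91 with shEZH2 (adjusted p = 0.0198). Of 18 factors that act on the PTGS2 promoter or transcript, all tested, 4 rose and 1 fell with GSK343 and 2 rose and 1 fell with shEZH2, with medians of 0.12 and 0.13. HNRNPD, an AU-rich element binding protein that promotes decay of such transcripts, fell by 0.87 ± 0.30 and 0.95 ± 0.30 (adjusted p = 0.00389 and 0.00247). ZFP36 (tristetraprolin), which also promotes decay, rose by 0.81 ± 0.39 and 0.79 ± 0.39 (adjusted p = 0.0211 and 0.0186), and the transcription factor C/EBP beta (CEBPB) by 0.82 ± 0.39 and 0.83 ± 0.39 (adjusted p = 0.0196 and 0.0160). JUN and FOS, which form AP-1, rose with GSK343, JUN by 0.68 ± 0.38 (adjusted p = 0.0369) and FOS by 0.84 ± 0.47 (adjusted p = 0.0372). After rescaling, the GSK343 calls of CEBPB, JUN and FOS were lost (adjusted p = 0.0531, 0.0734 and 0.0532) and ELAVL1, an RNA-binding protein that stabilises such transcripts, was called lower at -0.49 in both comparisons (adjusted p = 0.0482 and 0.0391). The balance of this list thus turned to 1 higher and 2 lower for GSK343 and became 2 and 2 for shEZH2, with medians of 0.02 and 0.04.

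Downstream of EP2 and EP4, 0 of 15 tested cyclic AMP signalling genes (16 listed) passed in either comparison, with medians of 0.00 and 0.20, and the smallest p belonged to the catalytic kinase subunit PRKACA and the phosphodiesterase PDE4A for GSK343 (adjusted p = 0.114 and 0.150) and to PDE4A and the cyclase ADCY9 for shEZH2 (adjusted p = 0.0782 and 0.0809). After rescaling, PRKAR2A, a regulatory kinase subunit, was called lower with shEZH2 at -0.48 (adjusted p = 0.0472). Among genes known to respond to cyclic AMP and also to many other stimuli, 3 of 8 tested (10 listed) rose with GSK343 and 4 with shEZH2, with 0 falling and medians of 0.40 and 0.59. The phosphatase DUSP1 rose by 1.05 ± 0.34 and 1.10 ± 0.34 (adjusted p = 0.00308 and 0.00235), FOSB by 0.90 ± 0.31 and 0.67 ± 0.31 (adjusted p = 0.00429 and 0.0150), the nuclear receptor NR4A1 by 0.82 ± 0.34 and 0.76 ± 0.34 (adjusted p = 0.0117 and 0.0134), and NR4A2 with shEZH2 by 0.87 ± 0.41 (adjusted p = 0.0160). Among controls, FOSB was under 1 RPKM in all, and NR4A1 reached it only in MDA-MB-436 (1.12 RPKM) and NR4A2 only in MDA-MB-231 (1.04 RPKM). FOSB, NR4A1 and NR4A2 thus passed the filter through targeted libraries, and their calls are descriptions.

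Beside PTGES3, the co-chaperone p23, the HSP90 machinery (8 genes, all tested) had medians of -0.38 with GSK343 and -0.42 with shEZH2. HSP90AA1, the inducible HSP90, fell by 0.72 ± 0.37 and 0.66 ± 0.37 on the log2 scale (adjusted p = 0.0261 and 0.0299), and HSPA8, the constitutive HSC70, fell with shEZH2 by 0.71 ± 0.35 (adjusted p = 0.0192), which makes 1 of 8 for GSK343 and 2 of 8 for shEZH2, with 0 rising. After rescaling HSPA8 was also called lower with GSK343 (-0.63, adjusted p = 0.0491) and AHSA1, a co-chaperone that activates HSP90, with shEZH2 (-0.59, adjusted p = 0.0399). HSP90AA1 had 201, 163 and 165 RPKM with GSK343, 210, 159 and 184 with shEZH2, and 260, 266 and 349 in controls, so these groups did not overlap, as for PTGES3.

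**Figure D5:**
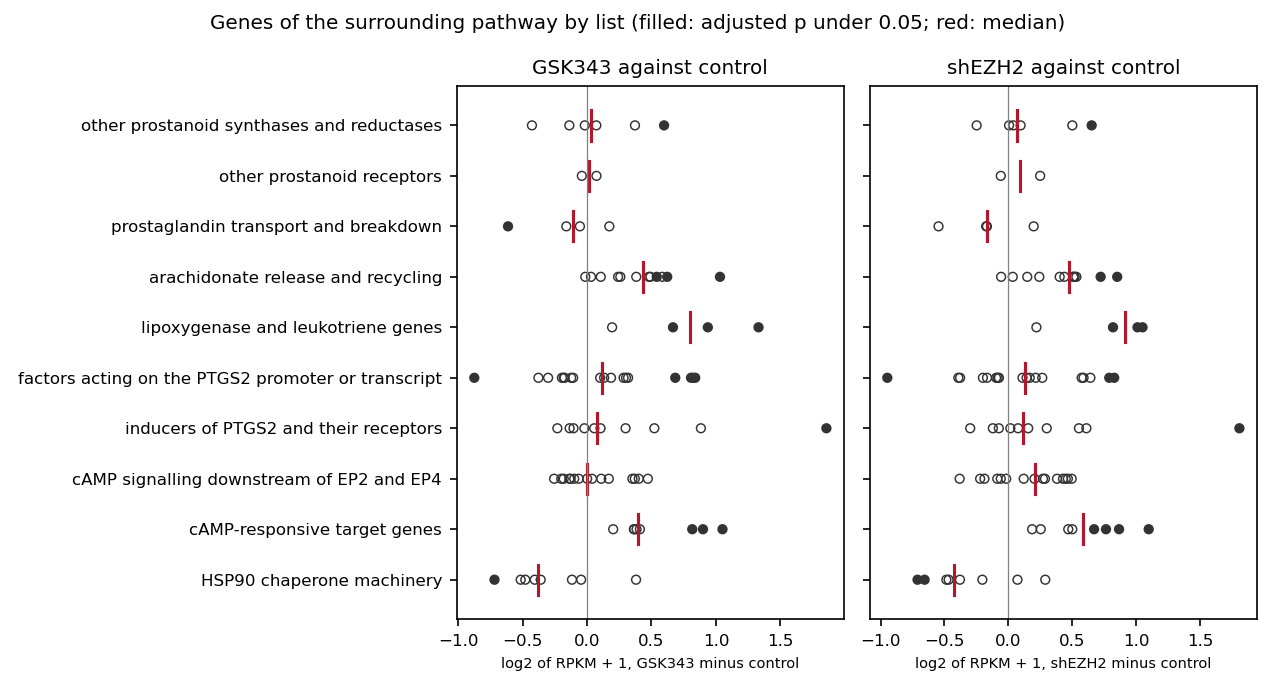
Difference of log2(RPKM + 1) from control for each tested gene of the 10 surrounding lists, with GSK343 (left) and shEZH2 (right); filled points have an adjusted p under 0.05 and red bars mark the list's median. The medians of the lipoxygenase list (0.80 and 0.91), the cyclic AMP-responsive list (0.40 and 0.59) and the arachidonate list (0.43 and 0.47) lie right of those over all genes (0.06 and 0.05), and that of the HSP90 list (-0.38 and -0.42) lies left. The lists were chosen with earlier results of these data known. The lipoxygenase, cyclic AMP-responsive and arachidonate lists include genes that passed the filter through targeted libraries, which favours higher medians.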

How the data were processed

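Strand and read layout are not stated for the 9 RNA-seq libraries. Total RNA was extracted with a column kit, per the labels' protocols. The authors deposited one table of RPKM values per gene and library, and the submitters' processing notes list STAR, HTSeq and GRCh38, without versions. Counting strand and annotation are not stated, so reads of pseudogenes and overlapping genes are uncertain.

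Columns were matched to a line and a condition through their names, and all were used. RPKM multiplied by GENCODE release 29 exon length gave whole reads. This was checked on low values of the 92.5% of gene identifiers found in that release (100% within 0.05 read). PTGS1, listed under another version of its identifier, took the length of the release's version, and its values were whole within 0.05 read. Read numbers and 95% counting intervals of within-line ratios (exact binomial) were computed from these reads. For tests, genes that reached 1 RPKM in 3 or more libraries (12965 of 58037) were put on the log2(RPKM + 1) scale and fitted in limma 3.58.1 (R 4.3.3, mean-variance trend) with condition and line as terms (4 residual degrees of freedom). P-values are two-sided, Benjamini-Hochberg adjusted over all genes tested, threshold 0.05; fold changes of low genes are understated by the added 1. No separate cultures are stated, so p-values measure the spread between these libraries. The fit was also run on simulated data with independent noise and a cap on each gene's SD. That run does not cover noisier or dependent libraries.

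Libraries of a condition were paired by line, because same-numbered libraries carry the same line label. Deviations from condition means correlated at 0.358 to 0.953 across genes within lines, against -0.914 to 0.0903 between lines. Subtracting the mean of 3 libraries lowers the correlations between lines by construction, so the second range is no evidence for the pairing. The members and the gene lists were chosen with earlier results of these data known. The text names all 9 members, EZH2, up to 4 genes of each list by smallest p among those past the threshold (otherwise up to 2 that missed it), and the 5 genes closest to PTGS2 by each correlation; FOS, ELAVL1, PRKAR2A and AHSA1 were added after their values were seen. Alternatives were a pseudocount of 0.1, no filter, median-ratio rescaling, no trend, no line term, the 6 libraries of a comparison alone, and leaving out libraries. Upstream sequences are from RefSeq, and all 9 members matched.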

Additional observations from a re-analysis of the deposited data

Results flagged for a closer look

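The response of IL1B, an inducer of PTGS2, passed the threshold for a difference between MDA-MB-231 and MDA-MB-436. The response (mean of both targeted libraries minus control) in MDA-MB-231 exceeded that in MDA-MB-436 by 2.56 ± 0.58 on the log2(RPKM + 1) scale (adjusted p = 0.0431 by limma), in 2 of 2 targeted conditions. The spread in this fit comes from GSK343 against shEZH2 within lines; with 1 control library a line, neither the interval nor the p carries any spread between controls. IL1B stood at 75.1 RPKM with GSK343, 59.6 with shEZH2 and 5.15 in the control of MDA-MB-231, and at 250, 245 and 131 RPKM in MDA-MB-436. The direction is opposite to that of PTGS2 (-1.49), whose difference did not pass. Without the libraries labelled MDA-MB-453 the value was the same but the call was lost. By the design of this fit, these libraries add nothing to the value and enter only through the estimated spread and its degrees of freedom. The call thus depended on them.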

How the results depend on the processing

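The number of genes called depended on the libraries and settings used, with main counts of 1018 for GSK343 against control, 1377 for shEZH2 against control, 0 for GSK343 against shEZH2, 8224 between MDA-MB-231 and MDA-MB-436, and 7 for the response between those lines. Over the settings that leave out libraries the counts ran from 43 to 1250, 16 to 1621, 0 to 3, 6909 to 8792 and 0 to 1300. Members called ran from 0 to 3, 0 to 4, 0 to 0, 3 to 4 and 0 to 2. Single libraries that moved the GSK343 count by over 1.5 times were the GSK343 libraries of replicate 1 (490 without it), 2 (619) and 3 (317) and the control of replicate 3 (289), and for shEZH2 they were the shEZH2 libraries of replicate 1 (410), 2 (910) and 3 (449) and the control of replicate 3 (322), where replicate 1 is MDA-MB-231, replicate 2 MDA-MB-436 and replicate 3 the line labelled MDA-MB-453. Without MDA-MB-231 the counts were 455 and 402, and without MDA-MB-453 they were 43 and 16. For the response between lines, 0 genes passed without the MDA-MB-436 or MDA-MB-453 library labelled GSK343 or the MDA-MB-453 library labelled shEZH2, and 1 without the MDA-MB-436 library labelled shEZH2.

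With no filter on low values, 14 genes and 0 members were called for GSK343, 15 and 0 for shEZH2, and 497 genes for the response between lines; this setting tests more genes. With no replicate block, that is without pairing by line, 2 genes and 0 members were called in each comparison with control. The other counts under a pseudocount of 0.1, rescaling by median ratios, no trend, or the 6 libraries alone were within 1.5 times of the main ones.

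The sign of GSK343 minus shEZH2 was not stable for members near 0. Over the settings without libraries it ran from -0.20 to 0.64 for PTGS2, -0.050 to 0.25 for PTGES2, -0.018 to 0.14 for PTGES3, -0.12 to 0.16 for PTGER4 and -0.21 to 0.067 for PLA2G4A, and it was -0.0034 for PTGER4 after rescaling. Between lines, PTGES3 ran from -0.012 to 0.14. For the response between lines, PTGES ran from -0.11 to 0.62, and PLA2G4A was 0.065 with a pseudocount of 0.1. The cause of these changes was not tested. The response between lines could not be fitted when the control library of either line was left out. Against control, all 108 member values for GSK343 and all 108 for shEZH2 under the alternatives moved by less than 1 SD between lines. Much of this was fixed by the design, so these counts are no evidence that the values are stable. Dropping the filter, the trend or the line term, or fitting only the libraries of a comparison, leaves the values unchanged. Leaving out a whole line can move a mean over lines by only part of that SD. Without libraries PTGER4 changed sign (-0.26 to 0.19 for GSK343, -0.30 to 0.16 for shEZH2), as did PTGES2 (-0.08 to 0.48 and -0.17 to 0.38). At 2 to 73 reads a library, changes in PTGS1, PTGER2 and HPGD smaller than their counting intervals were not detectable.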
